A study of Mus musculus with 6 samples.

Results

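The genes of the proteasome, the protease that degrades ubiquitin-tagged proteins, were followed in MEL cells, an erythroleukemia line of the mouse that is held at an erythroid progenitor stage until induced, over 4 days of differentiation. The members were all genes whose symbol reads Psma to Psmg followed by a digit, without the immunoproteasome genes Psmb8, Psmb9 and Psmb10, and each gene was represented by its RefSeq transcript with the highest mean count. This rule took 48 of the 23896 genes with a symbol. It holds 16 genes of the 20S core, 9 of the base, 8 of the lid, 5 of activators, 1 inhibitor, 7 assembly chaperones and 2 genes that match by symbol only. The cells were grown in suspension and received 2% DMSO, and poly(A)+ mRNA was sequenced in 2 biological replicates at each of days 0, 2 and 4, with no genetic change between the 6 libraries and no library of untreated cells beyond day 0. All libraries came from 1 established line, and p-values rest on the spread between its replicates within a day, pooled over all days.

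In each proteasome, 4 stacked rings form the barrel of the 20S core, in which the outer alpha rings gate the entrance and the inner beta rings hold the catalytic sites. A 19S regulatory cap sits on the barrel. Its base holds ubiquitin receptors and unfolds the substrate with a ring of ATPases, and its lid removes the ubiquitin chain. Other caps, the PA28 and PA200 activators, open the barrel without ubiquitin, and dedicated chaperones put the rings together. Extracts of reticulocytes, the last precursors of red blood cells, were the classic material in which ubiquitin-dependent proteolysis was worked out, and maturing erythroid cells degrade much of their former proteome.

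Counts on transcripts came to between 35294930 and 53899476 per library. Reads listed as without a feature made up 50.5% to 58.4% of their sum with these counts, in which a read can enter more than once. Levels below are CPM, counts scaled to library sizes that were adjusted by TMM factors (0.921 to 1.07). A level is thus relative to the other transcripts of the culture and is not a plain share of the counts. Fewer cells with a transcript cannot be told apart from less of it per cell. All 10 erythroid markers were detected, and their summed level was 989 and 1027 CPM at day 0 and 22330 and 24520 CPM at day 4. In this sum the reads of Hbb-b1 and Hbb-bs, whose counts were nearly identical in each library, may enter more than once. By day 4, 9 of the 10 were higher and 1, the erythroid transcription factor gene Klf1, was lower (-0.54, adjusted p = 0.0188 by edgeR). Summed markers of myeloid cells (5 genes) stayed at or below 2.04 CPM, of lymphoid cells (4 genes) at or below 0.172 CPM and of fibroblasts (4 genes) at or below 3.24 CPM, with up to 2, 3 and 2 of these genes at 0 counts. The 4 megakaryocyte markers, of which Itga2b and Pf4 are also made by erythroid progenitors, summed to 268.5 and 271.4 CPM at day 0, 213.7 and 236.5 CPM at day 2 and 547.5 and 621.8 CPM at day 4. At day 4 against day 0, 3 of the 4 were higher and 1, Pf4, was lower. The part of these cell types' markers in the proteasome results was not tested. Replicates of the proteasome genes were closest at days 2 and 4, at which the median difference between replicates was 0.09 (log2). At day 0 it was 0.22. Replicate 1 held the higher value for 35 of 46 genes at day 0, 28 at day 2 and 38 at day 4.

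Of the 48 genes, 46 passed the filter on low counts. Psma8, an alpha subunit of the testis, had 0 counts in all 6 libraries, which allows up to 3 counts in each. Psmb11, the catalytic subunit of the thymus, had 1 count in day 0 replicate 2, 1 in day 4 replicate 2 and 0 in the others. Neither gene was tested. Psmc3ip, a recombination factor, and Psme3ip1, named for an interaction with PA28 gamma, are no subunits. Both were kept because the rule takes them.

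Proteasome genes fell early and as a group. By day 2, 37 of the 46 tested genes were lower than at day 0 and 2 were higher in edgeR's quasi-likelihood test, at an adjusted p below 0.05, against 31.5% and 31.0% of all 12381 tested genes. Their median log2 fold change was -0.96, whereas that of all tested genes was 0.01. In 40 of the 46, both day 2 libraries lay below both day 0 libraries, against 39.7% of all tested genes. From day 2 to day 4 far fewer genes were called. In that step 8 genes were lower and 1 was higher, against 16.2% and 14.0% of all tested genes, and the median was -0.10. Over all 4 days, 37 genes were lower and 3 higher, against 36.4% and 35.5%, with a median of -1.07. In 39 genes the day 4 libraries lay below both day 0 libraries (42.4% of all tested genes), and 26 fell by 1 log2 unit or more, which 18.8% of all tested genes did. The summed counts of the 48 genes went from 0.830% and 0.725% of all transcript counts at day 0 to 0.491% and 0.493% at day 2 and to 0.456% and 0.421% at day 4.

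**Figure D1:**
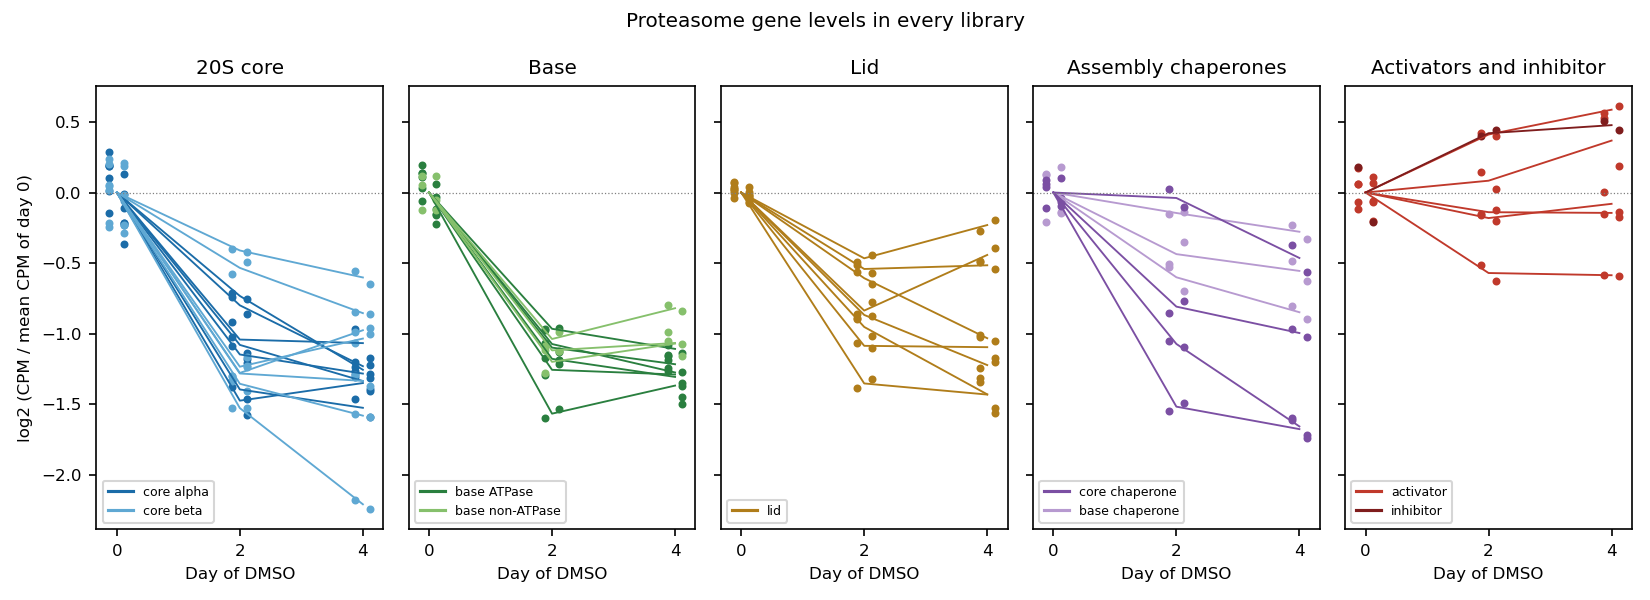
Level of 44 proteasome genes in each library, as log2 of its CPM over the gene's mean CPM at day 0, against the day of DMSO. Points are libraries (replicate 1 left, replicate 2 right), lines join the means of the days, and colours give the role. The lines of core, base and lid drop by day 2. From day 2 to day 4, 24 of these 31 genes had no call, and the changes ran from -0.68 (Psmb5) to 0.39 (Psmd3). The lines of the activator Psme4 and the inhibitor Psmf1 reach 0.41 and 0.42 by day 2 and 0.59 and 0.48 by day 4.

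The fall covered the subunits of the protease itself. All 31 tested genes of the core, the base and the lid were lower at day 2, each with both day 2 libraries below both day 0 libraries, and their median was -1.09. At day 4, 30 of the 31 were lower, with a median of -1.22, and Psmd11 of the lid missed the threshold. The medians of the 3 parts for day 4 against day 0 were -1.27 in the core (14 genes), -1.22 in the base (9 genes) and -1.06 in the lid (8 genes). The 7 assembly chaperones had a median of -0.85, with 6 lower. The 5 activators had a median of -0.08 (0.04 when scaled by total counts), with 1 lower and 1 higher, and the inhibitor Psmf1 rose.

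Some of these transcripts share sequence with other genes. These are pseudogenes and other copies elsewhere or, as Nek6 for Psmb7 and Gm26938 for Psmg3, genes that overlap at the same locus. The counting does not separate the reads of such genes with certainty. In 16 of the 48 genes, at least 10% of the 32-base words of the transcript also occur in another GENCODE gene, and the level of such a gene is uncertain. The 20 tested genes of core, base and lid under that limit were all lower at day 2 and at day 4, with medians of -1.04 and -1.10.

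Promoters of these genes were read because so many members moved together. A window from 250 bases before to 50 bases after an annotated start was available from RefSeq (GRCm38.p6) for 40 of the 48 genes, 44 windows in all. The ETS core, CCGGAA on either strand, occurred in 23 of the 44 windows (52.3%), in 27.7% of the windows of all tested genes and in 14.9% of all windows. Of its 35 sites, 32 lay between 150 bases before and 50 bases after the start. Windows of called genes held it in both directions. It occurred in 17 of 32 windows of genes lower at day 4 and in 3 of 8 windows of tested genes without a call. Of the genes higher at day 4, 3 of 3 windows held it (Psme4, Psmf1 and Psmc3ip, the last of which is no subunit). The other motifs searched on both strands were found at shares closer to those of the tested genes. The antioxidant response element core TGACNNNGC occurred in 13.6% of the member windows (14.4% of those of tested genes), the CCAAT box (CCAAT) in 34.1% (38.5%), the GC box GGGCGG in 54.5% (62.4%), the E-box CACGTG in 9.09% (9.91%), and the GATA sites AGATAA and TGATAA in 6.82% (7%) and 4.55% (4.39%). A match is a run of letters in the window and no evidence of binding.

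Windows of 4 genes are shown, 5′ to 3′ along the gene with the ETS core in capitals. They belong to Psma6, the member window with the most sites (4), to Psmb5, the gene with the largest fall, and to Psme4 and Psmf1, which rose. Psma6 has a further annotated start, whose window at chr12:55383972-55384271 on the plus strand holds 0 ETS cores.
Psma6 (chr12:55398575-55398874, + strand): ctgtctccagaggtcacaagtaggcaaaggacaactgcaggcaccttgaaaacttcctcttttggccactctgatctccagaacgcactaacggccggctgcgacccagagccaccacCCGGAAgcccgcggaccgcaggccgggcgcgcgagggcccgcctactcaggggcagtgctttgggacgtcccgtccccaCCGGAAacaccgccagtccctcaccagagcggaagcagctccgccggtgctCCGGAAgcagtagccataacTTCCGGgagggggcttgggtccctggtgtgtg
Psmb5 (chr14:54617946-54618245, - strand): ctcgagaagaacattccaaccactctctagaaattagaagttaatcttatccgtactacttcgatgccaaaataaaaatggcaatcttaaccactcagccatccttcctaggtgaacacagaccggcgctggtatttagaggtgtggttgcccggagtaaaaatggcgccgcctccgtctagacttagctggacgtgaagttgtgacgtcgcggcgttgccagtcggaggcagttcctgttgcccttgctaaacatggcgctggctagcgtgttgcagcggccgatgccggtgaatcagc
Psme4 (chr11:30771525-30771824, + strand): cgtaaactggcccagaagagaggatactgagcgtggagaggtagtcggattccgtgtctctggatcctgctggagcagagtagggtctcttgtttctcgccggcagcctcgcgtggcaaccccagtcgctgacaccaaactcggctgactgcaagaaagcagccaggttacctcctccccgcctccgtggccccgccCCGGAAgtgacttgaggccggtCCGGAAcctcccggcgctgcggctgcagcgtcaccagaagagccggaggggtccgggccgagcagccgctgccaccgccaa
Psmf1 (chr2:151741261-151741560, - strand): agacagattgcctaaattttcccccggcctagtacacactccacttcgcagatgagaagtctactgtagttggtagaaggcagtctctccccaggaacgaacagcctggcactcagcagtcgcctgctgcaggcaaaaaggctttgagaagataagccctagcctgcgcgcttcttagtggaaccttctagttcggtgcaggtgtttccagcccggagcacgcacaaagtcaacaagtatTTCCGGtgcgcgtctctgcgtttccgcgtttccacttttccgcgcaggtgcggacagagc
The window of Psmb5 had no ETS core. It had 1 antioxidant response element core, 47 bases before the start. The ETS cores of Psme4 began 53 and 31 bases before the start and that of Psmf1 10 bases before it. The part of these letters in the changes was not tested.

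The 7 alpha subunits, which build the gated outer rings, were all lower at day 2 and at day 4. Their log2 fold changes for day 4 against day 0 ran from -1.07 (Psma2) to -1.53 (Psma1). Psma1 (chr7:114264550-114276116, GRCm38, - strand) had the largest fall among them, from 290 and 249 CPM at day 0 to 107 and 97.8 CPM at day 2 and 97.8 and 89.6 CPM at day 4 (day 4 over day 0, -1.53 ± 0.12 on the log2 scale, with the SE of the fit, adjusted p = 8.93e-07). Both later days lay far below day 0, and the 2 day 4 libraries lay just below those of day 2. Psma3, Psma4 and Psma5 were lower by similar amounts (-1.28, -1.34 and -1.35), with 27.3%, 45.5% and 65.8% of their words shared with other genes. For each of them the gene that shared most was a processed pseudogene. The remaining alpha genes, Psma6 (-1.23) and Psma7 (-1.26), were called lower again after day 2, by 0.43 and 0.52 on the log2 scale. The other 5 alpha genes had no call in that step. With 1 day 2 or day 4 library left out, the changes ran from -0.49 to -0.38 (Psma6) and from -0.59 to -0.47 (Psma7). Both calls depended on single libraries. Psma7 was also the gene whose day 0 replicates lay farthest apart, at 553 and 351 CPM.

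The catalytic subunits fell by unequal amounts. Psmb5 (chr14:54614120-54617995, - strand) carries the chymotrypsin-like activity, the site at which bortezomib binds. Its levels were 83.0 and 114 CPM at day 0, 34.2 and 34.1 CPM at day 2 and 21.8 and 20.8 CPM at day 4. This was the largest fall of all tested members, -2.21 ± 0.15 for day 4 against day 0 (adjusted p = 2.88e-07), which left 21.6% of the day 0 level. The gene fell at both steps, but its call in the second step depended on single libraries. Because 73.3% of its words also occur elsewhere, chiefly in the processed pseudogene Gm3375, its level is among the less certain ones.

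Psmb7 (chr2:38588046-38643952, - strand), the trypsin-like subunit, measured 172 and 161 CPM at day 0, 67.7 and 62.9 CPM at day 2 and 56.3 and 55.3 CPM at day 4 (-1.58 ± 0.10, adjusted p = 2.58e-07). A stretch of 34.9% of its transcript is overlapped on the opposite strand by exons of Nek6, and whether the counting used strand is not given in the sources used here. Psmb6 (chr11:70525324-70527858, + strand), the caspase-like subunit, measured 114 and 151 CPM at day 0, 53.7 and 58.9 CPM at day 2 and 63.3 and 66.0 CPM at day 4 (-1.04 ± 0.13, adjusted p = 3.72e-05). It shares 14.3% of its words with other genes. All 3 catalytic genes were thus below their day 0 range at both later days, but only Psmb5 was called lower again between days 2 and 4, while Psmb6 had both day 4 libraries above both day 2 libraries without a call (0.20 ± 0.13, adjusted p = 0.281).

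The 4 other tested beta genes, which are structural members of the inner rings, were lower as well. Psmb3 changed by -1.34 (66.3% of words shared), Psmb2 by -0.98 and Psmb4 by -0.85. Psmb1, at -0.60, had the smallest fall of the core and kept 65.9% of its day 0 level.

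By day 4 the ATPases of the base had changed by similar amounts. Their 6 genes, Psmc1 to Psmc6, were all lower at day 2 and at day 4. For day 4 against day 0 their log2 fold changes spanned -1.11 (Psmc3) to -1.37 (Psmc4). Those of the 3 other base genes spanned -0.82 to -1.07. For day 2 against day 0 the ATPases spanned more, -0.97 (Psmc3) to -1.57 (Psmc4), beside -0.73 to -1.47 in the alpha genes. Of the words of Psmc1, 38.3% also occur in other genes. Psmc4 (chr7:28041702-28050092, - strand) had the largest day 2 fall of all members, -1.57 ± 0.13 (adjusted p = 3.59e-06). Its levels were 301 and 246 CPM at day 0, 90.2 and 94.5 CPM at day 2 and 115 and 96.7 CPM at day 4, so that both later days lay far below day 0. None of the 6 was called between days 2 and 4, where their log2 fold changes lay between -0.20 and 0.20.

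Levels per kilobase of transcript also kept these 6 genes together. In each library the highest of them was between 1.43 and 1.82 times the lowest, although the median went from 199 and 162 CPM per kb at day 0 to 78.6 and 64.9 CPM per kb at day 4. The 14 core genes, which the particle also needs in equal numbers, spanned 48.4 to 106 times between lowest and highest per kilobase, with Psma3 the lowest and Psmb4 the highest. Among the 7 core genes with under 10% shared words this span was 18.3 to 30.8. The 8 lid genes spanned 4.04 to 9.14, and the 6 of them under that limit 2.99 to 4.02. The 3 other base genes spanned 5.08 to 6.34.

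The other base genes were Psmd1 and Psmd2, the large scaffolds, and Psmd4, a ubiquitin receptor. Psmd2 (chr16:20651122-20663414, + strand) had 371 and 439 CPM at day 0, 167 and 186 CPM at day 2 and 204 and 182 CPM at day 4 (-1.07 ± 0.13, adjusted p = 1.94e-05). The transcript that stands for it is listed as non-coding in RefSeq, carries nearly the same reads as the coding one, and shares 43.4% of its words with other genes. Psmd1 changed by -1.07 as well and Psmd4 by -0.82, each with all later libraries below day 0.

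In the lid, log2 fold changes for day 4 against day 0 ran from -1.43 to -0.23. Psmd14 (chr2:61711694-61800376, + strand), the deubiquitinase that cuts the chain off the substrate, and Psmd7 (chr8:107580380-107588482, - strand), its partner in the same dimer, fell together, by 1.43 each on the log2 scale. Psmd7 had the largest fall of the lid, from 270 and 286 CPM at day 0 to 107 and 111 CPM at day 2 and 110 and 96.5 CPM at day 4 (adjusted p = 8.93e-07). Psmd14 continued to fall after day 2 (-0.48 ± 0.12, adjusted p = 0.0112), whereas Psmd7 had no call in that step (-0.08 ± 0.11, adjusted p = 0.622). The call of Psmd14 in that step depended on single libraries.

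The scaffold subunits of the lid that follow were lower at day 4 by differing amounts. Psmd13 changed by -1.22, Psmd12 by -1.10, Psmd6 by -1.03 and Psmd8 by -0.52. Psmd13 overlaps exons of Sirt3 on the opposite strand over 17.2% of its length. Psmd3 (chr11:98682554-98695978, + strand) was the one gene called in opposite directions at the 2 steps. It went from 200 and 202 CPM at day 0 down to 108 and 117 CPM at day 2 (-0.84 ± 0.11, adjusted p = 5.58e-05) and back up to 143 and 153 CPM at day 4 (0.39 ± 0.11, adjusted p = 0.0173). With 1 day 2 or day 4 library left out, this rise was 0.33 to 0.45, and its call depended on single libraries. Both day 4 libraries lay between the day 2 and the day 0 ranges, and the gene was still lower than at day 0 (-0.44 ± 0.11, adjusted p = 0.0029).

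Psmd11, a subunit that clamps the lid to the core, was the exception of the 31. Its levels were 58.1 and 56.3 CPM at day 0, 40.7 and 42.1 CPM at day 2 and 47.5 and 50.1 CPM at day 4. The day 2 fall passed the test (-0.47 ± 0.10, adjusted p = 0.00225), and the day 4 difference did not (-0.23 ± 0.10, adjusted p = 0.0621), although the libraries did not overlap. With relative log expression factors the latter was called (-0.25, adjusted p = 0.0457), as it was without day 0 replicate 2 (-0.26, adjusted p = 0.0295). Of its words, 27.6% also occur in other genes.

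**Figure D2:**
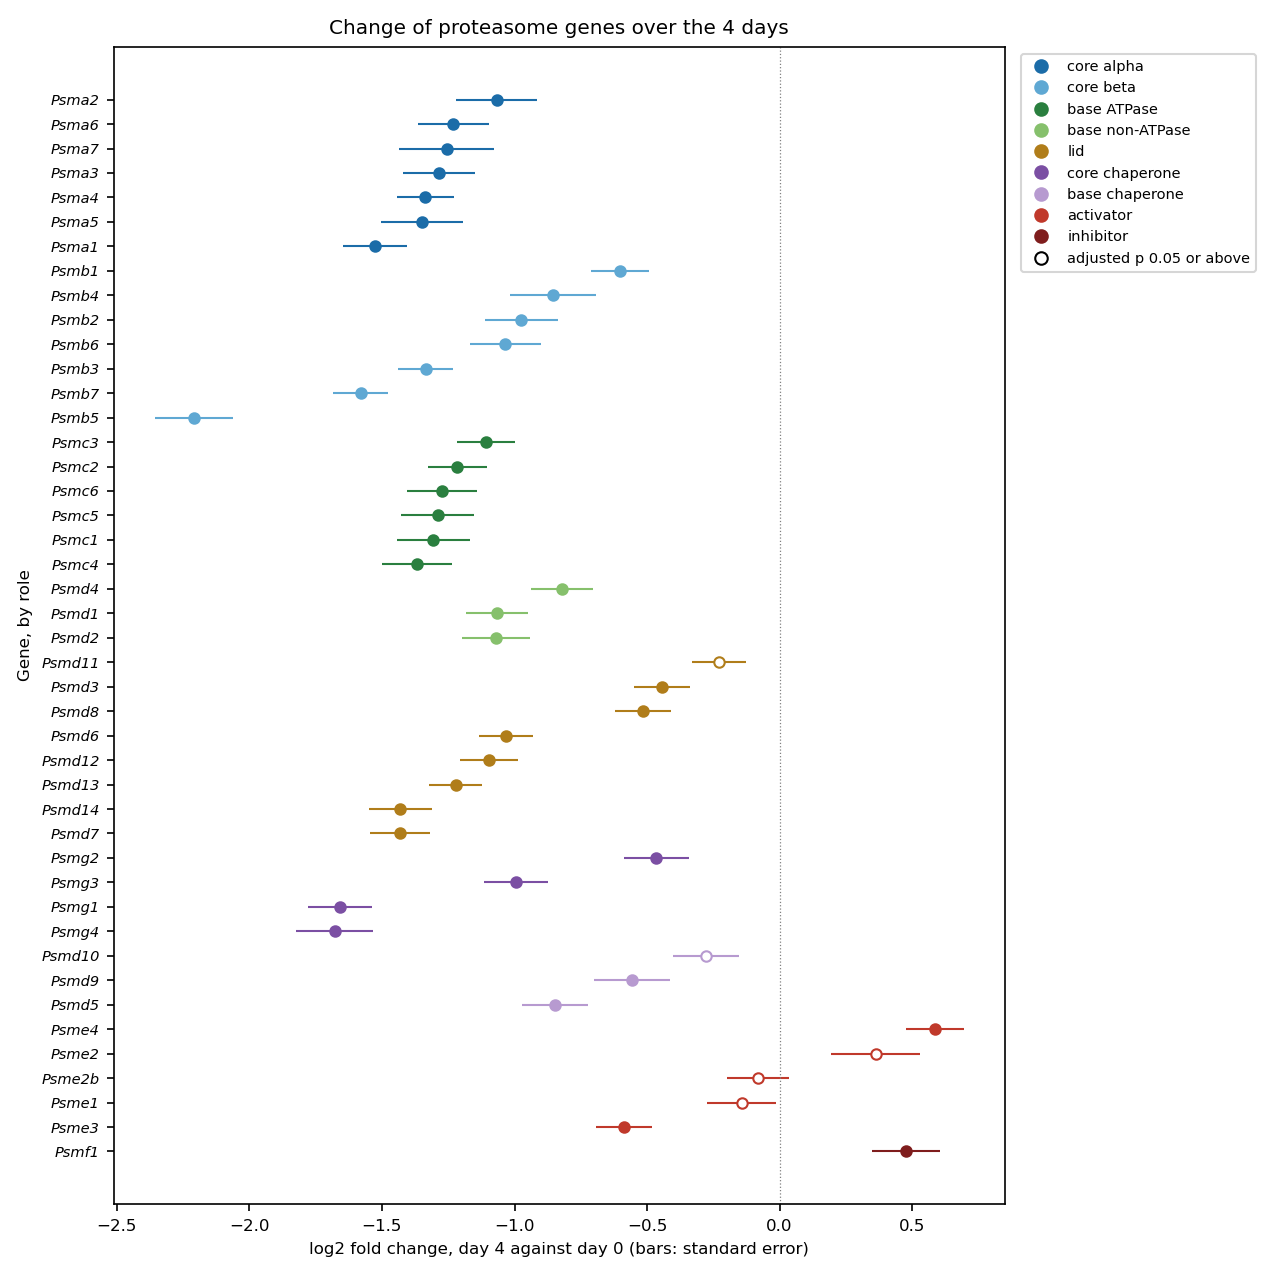
Log2 fold change of day 4 against day 0 for 44 proteasome genes, grouped and coloured by role, with bars of 1 standard error from the edgeR fit and open circles for genes that missed the threshold. Core, base and lid lie left of 0, from -2.21 for Psmb5 to -0.23 for Psmd11, and the activators and the inhibitor spread around 0 from -0.59 to 0.59.

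Activators of the core took a different course from gene to gene. Psme4 (chr11:30771775-30881150, + strand) encodes PA200, a nuclear cap. It was at 191 and 174 CPM at day 0, 244 and 241 CPM at day 2 and 269 and 279 CPM at day 4, with each later library above every day 0 library. The gene rose by day 2 (0.41 ± 0.11, adjusted p = 0.00668) and was at 150.2% of its day 0 level at day 4 (0.59 ± 0.11, adjusted p = 0.000523), and none of its words occur in another gene. Without day 2 replicate 1 the day 2 rise missed the threshold (0.40, adjusted p = 0.0577).

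Psme3 (chr11:101316213-101323537, + strand), PA28 gamma, the nuclear form of PA28, went the other way. It was at 185 and 170 CPM at day 0, 124 and 115 CPM at day 2 and 118 and 118 CPM at day 4 (-0.59 ± 0.11 for day 4 against day 0, adjusted p = 0.000442), all later libraries below day 0. Psme1 (chr14:55578494-55581527, + strand), PA28 alpha, measured 53.0 and 40.8 CPM at day 0, 42.2 and 43.0 CPM at day 2 and 42.3 and 42.6 CPM at day 4. It shares 21.6% of its words with other genes. The groups overlapped and no step passed the test (-0.14 ± 0.13 for day 4 against day 0, adjusted p = 0.338), but without day 0 replicate 2 the day 4 difference was -0.33 (adjusted p = 0.00804) and without day 0 replicate 1 it was 0.05, so the value rests on which day 0 library is used.

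PA28 beta is encoded by Psme2 (chr14:55587440-55591101, - strand), and Psme2b (chr11:48945345-48946410, - strand) carries much of the same sequence. The transcript of Psme2 shares 65.8% of its words and that of Psme2b 77.9%, chiefly with each other, so their reads could be split between them. Psme2 was counted at 6.05 and 7.09 CPM at day 0, 7.26 and 6.67 CPM at day 2 and 9.47 and 7.49 CPM at day 4 (0.36 ± 0.17, adjusted p = 0.0702). Psme2b was counted at 37.5 and 41.1 CPM at day 0, 35.2 and 34.2 CPM at day 2 and 39.5 and 34.9 CPM at day 4 (-0.08 ± 0.12, adjusted p = 0.543). Neither gene passed the test at any step. Psme2 did pass for day 4 against day 0 with total counts (0.48, adjusted p = 0.0237), without a filter (0.37, adjusted p = 0.0466), without day 0 replicate 2 (0.47, adjusted p = 0.0354) and without day 4 replicate 2 (0.52, adjusted p = 0.0317).

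Psmf1 (chr2:151716062-151744199, - strand) encodes PI31, which inhibits the isolated 20S core. Its levels were 97.3 and 74.4 CPM at day 0, 113 and 117 CPM at day 2 and 122 and 117 CPM at day 4, so that every later library exceeded both day 0 libraries. It rose by day 2 (0.42 ± 0.13, adjusted p = 0.0144) and was at 139% of its day 0 level at day 4 (0.48 ± 0.13, adjusted p = 0.006). The day 2 call, unlike that at day 4, was lost without day 0 replicate 2 (0.23, adjusted p = 0.0627), day 2 replicate 1 (0.44, adjusted p = 0.066) or day 2 replicate 2 (0.40, adjusted p = 0.0905).

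The level of these regulators was also set against that of the core. Per kilobase, Psme4 stood at 0.219 and 0.202 of the median core gene at day 0, 0.718 and 0.716 at day 2 and 0.800 and 0.826 at day 4. Psmf1 went from 0.190 and 0.147 at day 0 to 0.567 and 0.590 at day 2 and 0.618 and 0.590 at day 4. Psme3, which fell itself, went from 0.516 and 0.479 to 0.857 and 0.849 at day 4. Against the 7 core genes with under 10% shared words alone, Psme4 was at 0.159 and 0.179 at day 0 and 0.510 and 0.576 at day 4, and Psmf1 was at 0.138 and 0.130 and then 0.394 and 0.412. Psme3 was at 0.375 and 0.425 of these genes at day 0 and at 0.546 and 0.592 at day 4. These ratios are descriptions of transcripts and carry no test.

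**Figure D3:**
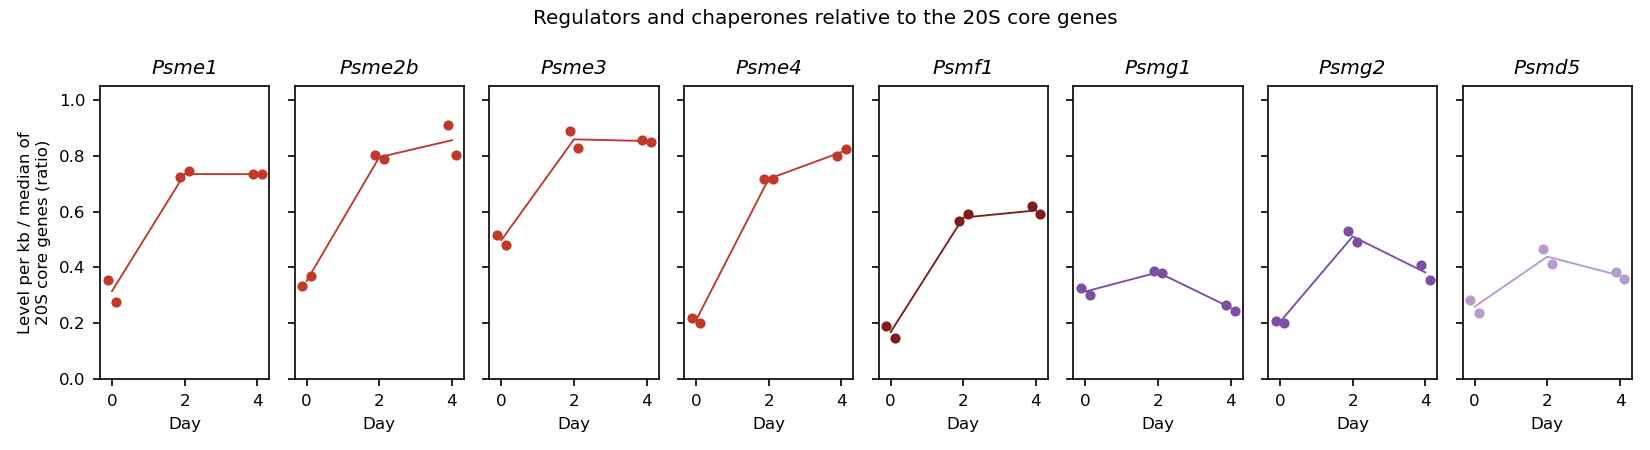
Level per kilobase of 4 activators (red), the inhibitor Psmf1 (dark red) and 3 chaperones (purple) as a ratio to the median of the 14 tested 20S core genes, against day. Points are libraries (replicate 1 left, replicate 2 right), and lines join the means of the 2 replicates. Psme4 climbs from 0.219 and 0.202 at day 0 to 0.800 and 0.826 at day 4, while Psmg1 is at 0.267 and 0.245 at day 4, below its 0.326 and 0.302 at day 0.

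All 4 chaperones of the core were lower at day 4. Psmg1 and Psmg2 form the dimer that starts the alpha ring. Psmg1 (chr16:95979933-95990960, - strand) was at 45.7 and 41.9 CPM at day 0, 21.1 and 20.6 CPM at day 2 and 14.5 and 13.3 CPM at day 4, the days not overlapping, and fell at both steps (-1.66 ± 0.12 for day 4 against day 0, adjusted p = 4.86e-07). Its partner Psmg2 was at 29.8 and 28.2 CPM at day 0, 29.5 and 27.0 CPM at day 2 and 22.4 and 19.6 CPM at day 4. Psmg2 thus overlapped day 0 at day 2 (-0.04 ± 0.12, adjusted p = 0.792) and was called lower in the second step (-0.43 ± 0.12, adjusted p = 0.0231). Its day 4 call against day 0 (-0.46 ± 0.12, adjusted p = 0.00522) depended on day 4 replicate 2 (-0.37 without it). The second-step calls of both Psmg1 and Psmg2 depended on single libraries.

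Psmg3 and Psmg4 form the second dimer of the ring. Psmg4 (chr13:34162964-34178172, + strand) was at 15.9 and 18.4 CPM at day 0, 5.87 and 6.10 CPM at day 2 and 5.60 and 5.13 CPM at day 4, which was the largest fall of a chaperone (-1.68 ± 0.15, adjusted p = 1.86e-06). Psmg3 (chr5:139823613-139826894, - strand) was at 35.3 and 31.0 CPM at day 0, 18.4 and 19.5 CPM at day 2 and 17.0 and 16.3 CPM at day 4 (-0.995 ± 0.12, adjusted p = 2.3e-05). Both had all later libraries below day 0. The same-strand gene Gm26938 overlaps 26.8% of the Psmg3 transcript.

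Chaperones of the base, which hold single ATPases before the ring closes, had smaller log2 fold changes than those of the core except Psmg2. Psmd5 (chr2:34852087-34870965, - strand) was at 167 and 138 CPM at day 0, 107 and 93.9 CPM at day 2 and 87.5 and 81.9 CPM at day 4 (-0.85 ± 0.12, adjusted p = 9.14e-05). Psmd9 (chr5:123228190-123250126, + strand) was at 40.6 and 53.3 CPM at day 0, 32.5 and 36.8 CPM at day 2 and 33.5 and 30.3 CPM at day 4 (-0.56 ± 0.14, adjusted p = 0.00461). In both genes the later libraries lay below day 0.

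Psmd10 (chrX:140948425-140956711, - strand), also known as the oncoprotein gankyrin, was at 28.9 and 24.1 CPM at day 0, 23.8 and 24.1 CPM at day 2 and 22.6 and 21.1 CPM at day 4. No step passed the test (-0.28 ± 0.13 for day 4 against day 0, adjusted p = 0.0674), except that the day 4 difference did without day 0 replicate 2 (-0.42, adjusted p = 0.00529). The higher day 2 library and the lower day 0 library nearly coincided.

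Of the 2 genes taken by symbol only, Psmc3ip had 17 to 32 counts per library and was higher at day 4 (0.87 ± 0.33, adjusted p = 0.036), a call that DESeq2 (adjusted p = 0.235) and every fit without 1 library except that without day 0 replicate 1 did not make. Exons of Mlx on the opposite strand overlap 29.8% of its transcript. Psme3ip1 had no call (0.02 ± 0.12 for day 4 against day 0, adjusted p = 0.87).

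Whether the fall slowed was tested as the difference between the 2 steps. In 28 of the 46 genes the second step lay above the first by more than the spread between replicates, against 13.1% of all tested genes, and in 0 the reverse was called. These 28 comprised 10 of the core, all 9 of the base, 6 of the lid, 2 chaperones and Psme3. The contrast counts the day 2 libraries against both steps, and without day 2 replicate 1 it called 7 genes and without day 2 replicate 2 it called 8. Lower at both steps were 7 genes, namely Psma6, Psma7, Psmb5, Psmd6, Psmd13, Psmd14 and Psmg1, against 9.05% of all tested genes, and of these only Psmb5 and Psmd13 had a called difference between the steps.

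Calls in the second step depended on single libraries. The fit called 9 genes, 15 without either day 0 library, 2 without day 2 replicate 2, 5 without day 4 replicate 1 and 0 without day 2 replicate 1 or without day 4 replicate 2, where 5 and 8 genes had an unadjusted p below 0.05. DESeq2 on all libraries called 9.

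**Figure D4:**
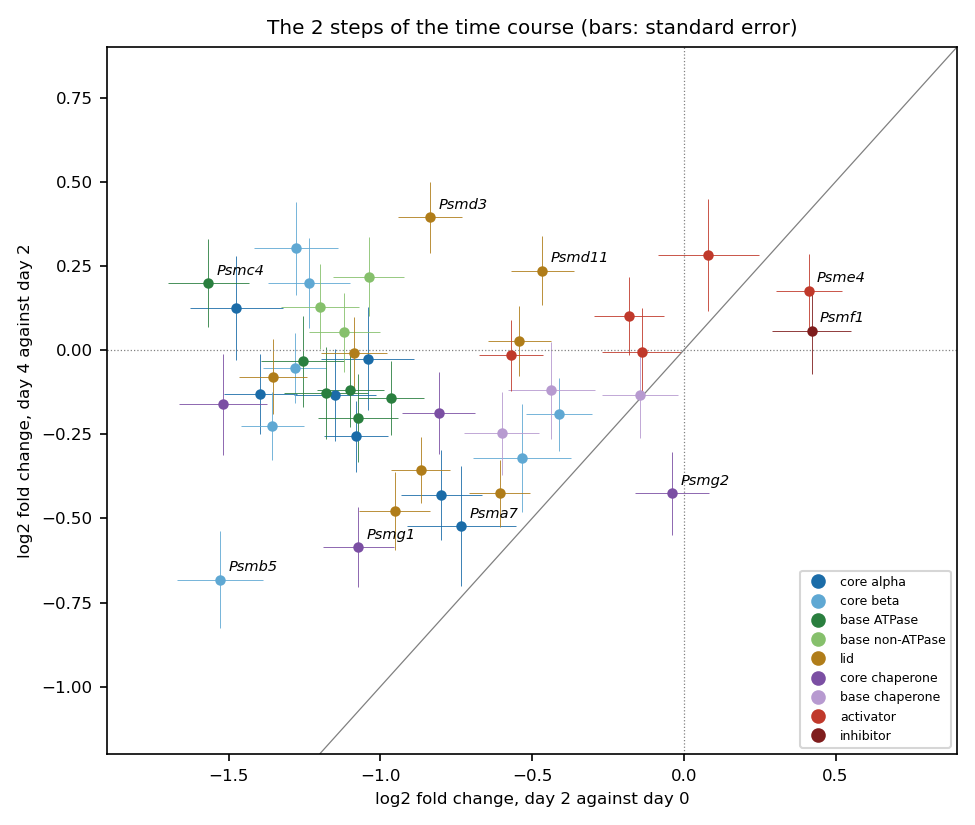
Log2 fold change from day 2 to day 4 against that from day 0 to day 2 for 44 proteasome genes, coloured by role, with bars of 1 standard error. The grey line marks equal steps. Most core, base and lid genes lie far left of 0 and close to 0 on the vertical axis, Psmb5 is low on both, Psmd3 is at 0.39 in the second step, and Psme4 and Psmf1 lie to the right of 0.

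The pathway around the protease was read from lists of further genes. The 3 immunoproteasome genes, which replace the catalytic subunits in immune cells, did not share 1 course. Psmb10 fell by 1.71 on the log2 scale by day 4 (adjusted p = 4.5e-07) and Psmb8 by 1.11 (adjusted p = 6.4e-06). Psmb9, at 1.61 to 4.67 CPM, rose by day 2 (0.66, adjusted p = 0.038), fell afterwards (-1.06, adjusted p = 0.011) and had no call over the 4 days (-0.40, adjusted p = 0.20).

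Beyond these, 5 lists on the pathway held 26 genes reported here, all tested. For day 4 against day 0, 9 were lower and 4 higher, with a median of -0.10, and for day 2 against day 0, 12 were lower and 3 higher. Between days 2 and 4, 1 was lower and 5 were higher. Over all genes tested, 36.4% were lower and 35.5% higher at day 4, 31.5% and 31.0% at day 2, and 16.2% and 14.0% between days 2 and 4, so the 9 lower genes of 26 at day 4 are a share near the background. At day 4 the lower and higher genes numbered 2 and 0 of 3 other subunits and maturation factors, 3 and 2 of 7 proteasome-associated proteins, 1 and 1 of 4 NRF1 regulators, 2 and 1 of 8 shuttle factors and VCP genes, and 1 and 0 of 4 ubiquitin and activating enzyme genes. Among those that fell were Pomp, the maturation factor of the core (-1.19, adjusted p = 1.0e-05), and Uchl5, a deubiquitinase of the base (-1.61, adjusted p = 9.5e-07). Sem1, a small lid subunit, was also called lower (-0.60, adjusted p = 0.032), but its libraries overlapped, with 76.2 and 144 CPM at day 0 and 78.0 and 66.8 CPM at day 4.

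Adrm1, the ubiquitin receptor that docks Uchl5, was lower at day 2 (-0.49, adjusted p = 0.003) and missed the threshold at day 4 (-0.22, adjusted p = 0.10). The shuttle factor Rad23b fell (-1.21, adjusted p = 1.3e-05), whereas Ubqln2, another shuttle factor, rose (0.82, adjusted p = 4.4e-05). Of the other ubiquilin genes listed, Ubqln4 fell (-0.60, adjusted p = 0.0004) and Ubqln1 had no call (-0.17, adjusted p = 0.20). Zfand5, which binds proteasomes and ubiquitin, rose as well (0.90, adjusted p = 1.7e-05).

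Of the NRF1 list, which holds the transcription factor Nfe2l1 that drives proteasome genes when the protease is inhibited, Nfe2l1 was lower at day 2 (-0.26, adjusted p = 0.037) and had no call at day 4 (-0.04, adjusted p = 0.75). Ddi2, the protease that activates it, fell by day 4 (-0.55, adjusted p = 0.00054). Nfe2l2, its stress-responsive relative, rose (0.51, adjusted p = 0.0011).

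Of the ubiquitin and activating enzyme genes reported here, Rps27a fell (-0.31, adjusted p = 0.03), and Ubb had no call (-0.10, adjusted p = 0.47). The activating enzyme Uba1 was lower at day 2 (-0.38, adjusted p = 0.024) and had no call at day 4 (-0.09, adjusted p = 0.56).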

How the data were processed

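Per the labels and methods, the authors prepared stranded poly(A)+ libraries, used cutadapt for adapters and TopHat for alignment (mm10), and the deposited values are raw counts of reads, 1 column per library, for 32654 RefSeq transcripts. The submitters' processing notes name HTSeq and DESeq2. The use of strand, the annotation release and the treatment of overlaps in counting are not given in the sources used here. Transcripts of 1 gene can carry the same reads.

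For symbols, a RefSeq annotation table (GRCm38) gave 32199 transcripts and GENCODE 187, and lengths, used for CPM per kb in place of the TPM first planned, from GENCODE (31824). Counts were tested with edgeR 4.0.16 in R 4.3.3 (TMM factors, filterByExpr by day, glmQLFit and glmQLFTest on all 6 libraries, a mean per day), with Benjamini-Hochberg adjustment over 18351 transcripts and calls at an adjusted p below 0.05. TMM factors ran from 0.921 to 1.07. Standard errors come from the fold change and the F statistic, CPM from scaled library sizes. The fit was tested on simulated counts. Every member is accounted for under its role. Values in every library are given for catalytic subunits, activators, the inhibitor, chaperones, the largest fall of each core, base and lid role and genes called in opposite directions, and Psmd11 was added to these because it was the exception, after its values were seen. Genes outside the rule come from fixed lists, of which some genes are not reported here. The members and lists were chosen with earlier results of these data known. Alternatives were DESeq2 1.42.0, other scalings, filters, samples, a replicate block, a log2 fold change of at least 0.5 and leaving out each library. The difference between the steps and the 10% limit on shared 32-base words were added after the data were seen.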

Additional observations from a re-analysis of the deposited data

How the results depend on the processing

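The early fall kept its direction throughout. Over all alternatives, 34 to 39 members were called for day 2 against day 0 and 37 to 43 for day 4 against day 0. With the replicate block, 39, 9 and 40 members were called for day 2 against day 0, day 4 against day 2 and day 4 against day 0, and no call changed. The difference between the steps was called in 26 members with it. The deviations of same-numbered libraries correlated at 0.0316, 0.0451 and 0.0791 over 18351 transcripts. Over all transcripts, no large effect shared by replicate number was thus seen. Among the members, the same replicate number held the higher value in most genes at each day. Whether same-numbered cultures were handled together cannot be told from these values and was not tested. Of 1794 repeats of 138 gene results, 1684 kept direction and call.

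Scaling by total counts moved the median of all genes to 0.21, -0.09 and 0.10 in the 3 comparisons. It put the members' median at -0.76, -0.18 and -0.95. The core was then at -0.99 by day 2 and -1.16 by day 4, the base at -0.92, -0.11 and -1.10, the lid at -0.65, -0.13 and -0.95, the activators at 0.058 by day 2, and the chaperones at -0.40 by day 2 and -0.73 by day 4. Genes without a call changed sign, Psmd10 to 0.053, Psme1 to 0.058, Psme2b to 0.017, Psme3ip1 to 0.080 and Psmg2 to 0.16 by day 2, Psmd1 to -0.031, Psmd8 to -0.056 and Psmf1 to -0.026 between days 2 and 4, and Psme2b to 0.036 by day 4. The day 2 calls of Psmb1 (-0.21, adjusted p = 0.125), Psmb4 (-0.34, adjusted p = 0.0914) and Psmd9 (-0.24, adjusted p = 0.165) were lost.

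The members' median was -0.98 at day 2 and -1.08 at day 4 with DESeq2, and -0.99 and -1.09 with relative log expression factors. Members under 10% shared words gave -0.89, -0.12 and -1.05. Psme1 between days 2 and 4 was at 0.0022 and 0.0032 under those tools. A fit of only the 2 days called 15 members between days 2 and 4, and a log2 fold change of at least 0.5 left 3. The cause of these differences was not tested.

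Leaving out 1 library at a time, where a lone library is assumed to vary like the other days, gave 0 to 15 calls between days 2 and 4 and 7 to 34 for the difference between the steps. The members' median ran from -1.01 to -0.88, -0.17 to -0.035 and -1.13 to -0.98. The core ran from -1.36 to -1.19 by day 4, the base from -1.19 to -1.02 by day 2 and from -0.17 to 0.060 between days 2 and 4, the lid from -1.12 to -1.02 by day 4 and from -0.13 to 0.030 between days 2 and 4, and the chaperones from -0.74 to -0.53 by day 2 and from -0.99 to -0.75 by day 4. Genes that changed sign ran, by day 2, from -0.32 to 0.061 (Psme1), -0.028 to 0.19 (Psme2) and -0.10 to 0.028 (Psmg2). Between days 2 and 4 they ran from -0.15 to 0.11 (Psma2), -0.19 to 0.11 (Psmc5), -0.090 to 0.061 (Psmd12), -0.18 to 0.0079 (Psmd7), -0.0074 to 0.055 (Psmd8), -0.021 to 0.0056 (Psme1) and -0.076 to 0.042 (Psme3). By day 4 they ran from -0.33 to 0.051 (Psme1), -0.17 to 0.0024 (Psme2b) and -0.081 to 0.12 (Psme3ip1). The day 2 call of Psmb4 was lost without day 0 replicate 1 (adjusted p = 0.055), that of Psmd9 without day 0 replicate 2 (adjusted p = 0.0953), and those of both and of Psmb1 without either day 2 library (adjusted p from 0.0522 to 0.165). With 2 libraries per day, the small differences of Psme1, Psme2 and Psme2b are not settled.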
